A study of Mus musculus with 9 samples.

Results

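The 37 genes of the mouse mitochondrial genome were taken as every gene whose symbol begins with mt- and that lies on chromosome M, out of 38293 genes in the table of read counts. They comprise 13 protein-coding genes, called mRNAs here, 2 rRNAs and 22 tRNAs. No measured value entered this rule, though the members and the gene lists below were chosen with earlier results of these data known. Counts came from RNA-seq of E14, an established mouse embryonic stem cell line of 129/Ola strain, in 3 culture states with 3 libraries each. mESC-2i were kept in N2B27, a serum-free medium, with 10 ng/mL LIF (a cytokine that holds cells in self-renewal), 1 µM PD0325901 (a MEK inhibitor) and 3 µM CHIR99021 (a GSK3 inhibitor), and the labels call them naive. mESC-ser were kept on gelatin in DMEM with 15% FBS (fetal bovine serum) and 10 ng/mL LIF, and the labels call them primed. EpiLC, epiblast-like cells, were made from 2i cells on fibronectin in N2B27 with 20 ng/mL activin A, 12 ng/mL bFGF and 1% KSR (a serum replacement). All 9 libraries were of poly-A enriched RNA from the same line, so they stand for 1 genetic background, and nothing in the labels says that replicates came from separate cultures. P-values therefore measure the spread between these libraries, which may be technical.

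Mitochondrial DNA is a small circle present in many copies per cell. Both of its strands are transcribed as long precursors that span many genes, and tRNAs lying between the mRNAs and rRNAs are cut out to release them, after which most mRNAs receive a short poly-A tail. The mRNAs encode core subunits of the respiratory chain (complexes I, III and IV) and of the ATP synthase (complex V), while the rRNAs and tRNAs serve the ribosomes inside the organelle that translate them. Because neighbouring genes share a precursor, the levels of single mRNAs depend on processing, tailing and decay as well as on transcription. Naive pluripotent cells are known to draw on both respiration and glycolysis, and cells closer to the epiblast to rely more on glycolysis.

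Genes on this circle abut or overlap, which limits what 50-base reads can assign. The sequences of 2 small mRNAs are shown whole because their counts moved apart from those of the mRNA they overlap, all on mm10, plus strand and read from GENCODE M21 transcripts. mt-Atp8 lies at chrM:7766-7969, and its capitals mark the 43 bases it shares with the start of mt-Atp6. mt-Nd4l lies at chrM:9877-10173, and its capitals mark the 7 bases it shares with the start of mt-Nd4.
mt-Atp8: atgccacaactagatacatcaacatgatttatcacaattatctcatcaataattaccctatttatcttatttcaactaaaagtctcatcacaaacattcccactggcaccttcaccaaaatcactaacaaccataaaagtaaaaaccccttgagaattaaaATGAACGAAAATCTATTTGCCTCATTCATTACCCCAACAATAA
mt-Nd4l: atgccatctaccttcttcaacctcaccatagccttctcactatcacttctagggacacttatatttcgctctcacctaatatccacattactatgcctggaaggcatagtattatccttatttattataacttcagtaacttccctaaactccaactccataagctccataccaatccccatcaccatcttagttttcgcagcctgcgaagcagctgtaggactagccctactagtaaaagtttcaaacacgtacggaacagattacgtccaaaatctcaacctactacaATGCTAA

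Of the 13 mRNAs, 10 carry a whole stop codon in the DNA and 3 end in a lone T, which the poly-A tail completes to a stop codon. The last 30 bases of those 3 are shown because a tail on them is part of the reading frame, with the final T in capitals. They come from mt-Co3 (chrM:9361-9390), mt-Nd4 (chrM:11515-11544) and mt-Cytb (chrM:15259-15288), all on the plus strand.
mt-Co3, end: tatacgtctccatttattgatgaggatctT
mt-Nd4, end: gtccaaaactaattacaggcctgacaataT
mt-Cytb, end: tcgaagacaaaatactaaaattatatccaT

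5 tRNAs are shown because the tRNA results below turn on them. mt-Tt (threonine, chrM:15289-15355), mt-Tl1 (leucine, chrM:2676-2750) and mt-Tw (tryptophan, chrM:4950-5016) lie on the plus strand, and mt-Tn (asparagine, chrM:5089-5159) and mt-Tp (proline, chrM:15356-15422) on the minus strand. The capitals in mt-Tw mark 2 bases shared with the end of mt-Nd2, and the others share no base with a neighbour.
mt-Tt: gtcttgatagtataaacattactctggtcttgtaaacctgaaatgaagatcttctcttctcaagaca
mt-Tn: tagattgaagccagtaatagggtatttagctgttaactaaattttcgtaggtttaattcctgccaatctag
mt-Tp: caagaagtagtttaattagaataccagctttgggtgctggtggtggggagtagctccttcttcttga
mt-Tl1: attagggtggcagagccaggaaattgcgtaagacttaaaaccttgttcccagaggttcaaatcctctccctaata
mt-Tw: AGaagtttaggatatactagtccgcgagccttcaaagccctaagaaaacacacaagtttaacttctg

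The mitochondrial genome took a smaller share of counts in mESC-ser than in either other state. Its genes held 6.19%, 5.86% and 7.98% of all counts in the 3 mESC-2i libraries, 4%, 3.66% and 4.31% in mESC-ser, as against 6.46%, 6% and 6.52% in EpiLC. The means were 6.68% ± 1.14 (SD, n = 3), 3.99% ± 0.325 and 6.32% ± 0.285. All mESC-ser libraries lay below all 6 others, while mESC-2i and EpiLC overlapped, with mESC-2i replicate 3 the highest of the 9. No p is given for this sum over members. In bulk RNA, fewer mitochondrial transcripts per cell and a different total of other RNA cannot be told apart.

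Nearly all of these counts fell on mRNAs. The 13 mRNAs held 98.5% ± 0.0802 (SD, n = 3) of the mitochondrial counts in mESC-2i, 97.2% ± 0.0469 in mESC-ser, with 98.1% ± 0.356 in EpiLC. The 2 rRNAs held 1.5% ± 0.0773, 2.8% ± 0.0456 and 1.89% ± 0.366, and the 22 tRNAs 0.0201% ± 0.00307, 0.0213% ± 0.00462 and 0.0447% ± 0.00991. Poly-A selection keeps RNA by its tail, so the mRNA, rRNA and tRNA values all describe captured molecules, not the abundance of these RNAs in the cell. Tails were not measured for any of them.

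**Figure D1:**
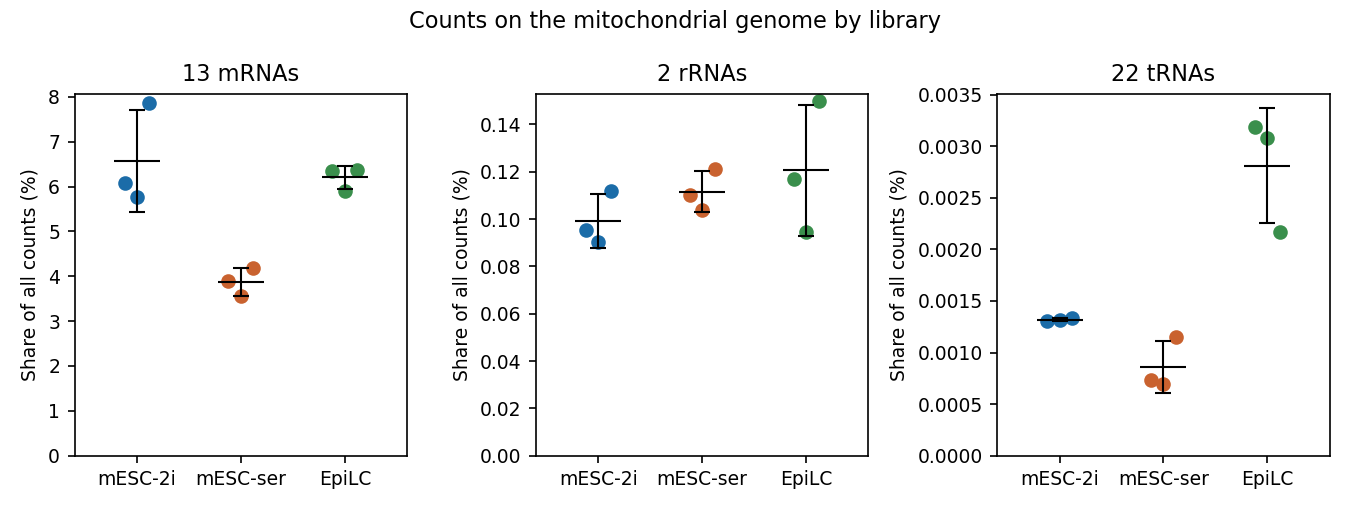
Share of all counts in percent (vertical axis, 1 panel each for mRNAs, rRNAs and tRNAs) in the 3 libraries of each culture state, with points for libraries and black marks for mean ± SD. The mRNA share in mESC-ser (3.87% on average) lies below that in mESC-2i (6.57%) and EpiLC (6.2%), and the tRNA share is highest in EpiLC (0.00281%).

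Total counts ran from 7187576 to 16829549 per library, and mESC-2i replicate 3 stood apart from its group in several members. Summed pluripotency markers (8 genes) were at 3250 to 3820 CPM in mESC-2i, 3020 to 3030 in mESC-ser, with 2100 to 2230 in EpiLC. Of these, Pou5f1 (873, 790 and 1010 CPM on average in this order) and Utf1 (27.9, 341 and 901) were highest in EpiLC. The others were lowest there. The 5 formative markers were at 77.2 to 85.3, 617 to 722 and 1680 to 1770 CPM, so the libraries carried the markers of their labels. Markers of other cells differed too. The 9 fibroblast markers summed to 71.1 to 75.8 CPM in mESC-2i and 64.5 to 85.1 in mESC-ser, and to less, 43.5 to 47.4, in EpiLC, where 1 of them was at 0. Thy1 (3.05, 4.41 and 29.5 CPM on average in this order) and Dcn (0.47, 0.165 and 8.51) went against the sum and were highest in EpiLC. The other fibroblast markers were lowest there. The 7 primitive endoderm markers summed to 20.7 to 24.3, 33.4 to 34.8 and 7.66 to 10.4 CPM in the same order, with no overlap between states and none at 0. Of these, Gata4 and Foxa2 were highest on average in mESC-2i and the others in mESC-ser. These sums move with the states in which the members differ, and their part in the results was not tested.

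Annotated near-identical copies in the nuclear genome bear on 9 of the mRNAs in the reference, and reads may have been split between them and the members. The share of 50-base windows that also occur in another annotated transcript was 100% for mt-Co2, 99.9% for mt-Co3, 99.5% for mt-Atp6, 98.8% for mt-Nd4l, 98% for mt-Nd3, 62.2% for mt-Nd4, 51.1% for mt-Co1, 8.2% for mt-Nd2 and 7.6% for mt-Nd5. It was 1% for mt-Rnr2 and 0% for mt-Nd1, mt-Atp8, mt-Nd6 and mt-Cytb. Only annotated transcripts were searched, so 0% does not exclude an unannotated copy. On the circle mt-Atp8 lies between mt-Co2 and mt-Atp6, whose copies Gm28661 and Gm10925 lie at chr1:24614885-24615565 and chr1:24613974-24614651. Whether the stretch between these copies matches mt-Atp8 was not checked. On chromosome 1, Gm10222 equals mt-Nd4l over 294 bases and held 1.25 to 1.42 times its count in every library. Gm13340 on chromosome 2, 97.6% identical to mt-Co1, held 0.192 to 0.223 of the count of mt-Co1. Gm13341, 95.9% identical to mt-Co2, held 0.258 to 0.266 of the count of mt-Co2 in mESC-2i. This was 0.262 to 0.304 in mESC-ser and 0.209 to 0.217 in EpiLC. Gm13339 held 0.0599 to 0.09 of the count of mt-Nd2 in both mESC states and 0.133 to 0.176 in EpiLC. Copies of mt-Co2, mt-Atp6, mt-Co3, mt-Nd3, mt-Nd4 and the end of mt-Co1 lie in the same block of chromosome 1 as Gm10222. They were not among the genes counted, so reads placed on them could not be seen or added to the members. Levels compared between these genes are therefore uncertain, and changes of a gene between states assume that the split was alike in all libraries. For mt-Co2 and mt-Nd2 the ratio of the copy to the member differed between EpiLC and both mESC states. Whether that reflects the split of reads was not tested.

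Per length, the mRNAs spanned a wide range within each state. Levels are given here as CPM per kb, that is CPM with TMM scaling divided by gene length. In mESC-2i the highest was mt-Co1 at 11400 ± 2830 CPM per kb (SD, n = 3), followed by mt-Atp6 at 9480 ± 379, mt-Nd1 at 7880 ± 789, mt-Co2 at 6810 ± 843, mt-Co3 at 6350 ± 546 and mt-Cytb at 5180 ± 1170. Then came mt-Nd4 at 3040 ± 924, mt-Nd2 at 2510 ± 484, mt-Nd5 at 2270 ± 776, mt-Atp8 at 1670 ± 116, mt-Nd3 at 1220 ± 204, mt-Nd4l at 617 ± 235 and mt-Nd6 at 170 ± 33.8. In 7 of the 12 neighbouring pairs of this order the libraries overlapped, mt-Co1 with mt-Atp6 and mt-Nd1 with mt-Co2 among them.

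The order shifted with the state. In mESC-ser, mt-Co1 (7070 ± 710 CPM per kb) and mt-Nd1 (6900 ± 646) were highest with overlapping libraries, mt-Co3 (2080 ± 118) lay beside mt-Nd4 (2080 ± 37.8) with overlapping libraries, and mt-Nd3 at 509 ± 29.7 stood below mt-Nd4l at 746 ± 101. In EpiLC, mt-Atp6 (14300 ± 792) and mt-Nd1 (12700 ± 733) led, mt-Co1 at 8700 ± 257 overlapped mt-Cytb at 8320 ± 490, and mt-Nd4l was last at 160 ± 16.2, below mt-Nd6 at 385 ± 36.2. Libraries of neighbours overlapped in 5 of 12 pairs in mESC-ser and in 2 of 12 in EpiLC. No order is read from overlapping neighbours.

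The mRNAs of complex IV, cytochrome c oxidase, were all lower in mESC-ser than in mESC-2i. mt-Co1 (ENSMUSG00000064351, chrM:5328-6872), the catalytic subunit, was at 15600, 14500 and 22600 CPM in mESC-2i, 11000, 9810 and 12000 in mESC-ser, with 13700, 13000 and 13600 in EpiLC. Both other states lay below mESC-2i in every library, and replicate 3 was the highest in mESC-2i. mt-Co2 (ENSMUSG00000064354, chrM:7013-7696), which takes electrons from cytochrome c, was at 4150, 4540 and 5290 CPM in mESC-2i, 2100, 1870 and 2320 in mESC-ser, with 6910, 6680 and 6910 in EpiLC. In TMM-scaled CPM the 3 states did not overlap and EpiLC was highest. mt-Co3 (ENSMUSG00000064358, chrM:8607-9390), a structural core subunit, was at 4810, 5470 and 4660 CPM in mESC-2i, 1630, 1540 and 1730 in mESC-ser, with 5370, 4960 and 4780 in EpiLC. Only mESC-ser stood apart, and mESC-2i and EpiLC overlapped.

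The ATP synthase pair diverged. mt-Atp6 (ENSMUSG00000064357, chrM:7927-8607), part of the proton path through the membrane, was at 6160, 6580 and 6630 CPM in mESC-2i, 3260, 2730 and 3150 in mESC-ser, with 10300, 9210 and 9700 in EpiLC. mt-Atp8 (ENSMUSG00000064356), a small membrane subunit read from the same messenger, was at 318, 338 and 365 CPM in mESC-2i, 182, 250 and 303 in mESC-ser, with 167, 127 and 193 in EpiLC. EpiLC was the highest state for mt-Atp6, whereas for mt-Atp8 it lay below mESC-2i and overlapped mESC-ser. Of the 50-base windows touching mt-Atp8, 44.7% touch no other gene, against 80.5% for mt-Atp6. How reads over the overlap were counted was not stated.

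Complex I, the NADH dehydrogenase, has 7 mRNAs on this genome, all for subunits of its membrane arm. mt-Nd1 (ENSMUSG00000064341, chrM:2751-3707) was at 7100, 7120 and 8410 CPM in mESC-2i, 6750, 5930 and 7140 in mESC-ser, with 12100, 11500 and 12900 in EpiLC. mt-Nd2 (ENSMUSG00000064345, chrM:3914-4951) was at 2380, 2260 and 3180 CPM, 2420, 2120 and 2550 CPM, and 4470, 4070 and 4800 CPM in the same order of states. For both, the mESC states overlapped and EpiLC lay above them in TMM-scaled CPM. mt-Nd3 (ENSMUSG00000064360, chrM:9459-9806) was at 395, 504 and 371 CPM in mESC-2i, 165, 183 and 183 in mESC-ser, with 1230, 1060 and 1060 in EpiLC. mt-Nd4 (ENSMUSG00000064363, chrM:10167-11544) was at 3620, 3310 and 5650 CPM in mESC-2i, 2880, 2810 and 2920 in mESC-ser, with 7390, 7000 and 7390 in EpiLC. For mt-Nd3 and mt-Nd4 all 3 states were apart in TMM-scaled CPM, with EpiLC highest and mESC-ser lowest.

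3 other mRNAs of complex I followed other orders. mt-Nd4l (ENSMUSG00000065947) was at 144, 142 and 264 CPM in mESC-2i, 192, 220 and 252 in mESC-ser, with 48.5, 42.3 and 51.8 in EpiLC. mt-Nd5 (ENSMUSG00000064367, chrM:11742-13565) was at 3860, 2870 and 5660 CPM in mESC-2i, 2710, 2670 and 2920 in mESC-ser, with 1570, 1260 and 1550 in EpiLC. Both were lowest in EpiLC without overlap, and their mESC states overlapped. mt-Nd6 (ENSMUSG00000064368, chrM:13552-14070), the only mRNA on the minus strand, was at 79.2, 77.1 and 109 CPM in mESC-2i, 146, 94.3 and 175 in mESC-ser, with 222, 191 and 187 in EpiLC. EpiLC was highest for mt-Nd6. The library kit does not mark strand, so reads of mt-Nd6 and of RNA from the opposite strand, which includes the end of mt-Nd5, cannot be told apart.

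Complex III has 1 mRNA here, mt-Cytb (ENSMUSG00000064370, chrM:14145-15288), for cytochrome b, its membrane core. mt-Cytb was at 5150, 5160 and 7470 CPM in mESC-2i, 4270, 3920 and 4790 in mESC-ser, with 9300, 9090 and 10200 in EpiLC. In TMM-scaled CPM the 3 states did not overlap, in the order EpiLC, mESC-2i and mESC-ser. How far EpiLC lies above mESC-2i in these levels depends on the scaling. With total counts as the only scaling, the log2 fold changes of mt-Co2 (0.195), mt-Nd2 (0.412), mt-Nd4 (0.432) and mt-Cytb (0.325) were not called. Those of mt-Nd3 (1.046) and mt-Nd6 (0.819) were.

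The first comparison set mESC-ser against mESC-2i. Here 9 of the 13 mRNAs were called lower in mESC-ser, against 30.3% of the 15728 genes tested, and 1 was called higher, against 25.9%. A call required a Benjamini-Hochberg adjusted p under 0.05 by edgeR's quasi-likelihood test over all genes tested, with a log2 fold change beyond 0.5 in either direction. The mESC-ser and mESC-2i libraries were apart in 8 of the 13 mRNAs, against 70.7% of all genes tested. The median log2 fold change over the 13 was -0.61, and -0.04 over all genes tested.

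The largest falls were those of mt-Co3, mt-Nd3, mt-Co2 and mt-Atp6. mt-Co3 fell 3.17-fold (log2 fold change -1.67, SE 0.11, edgeR adjusted p = 7.8e-07), mt-Nd3 2.49-fold (-1.31, SE 0.13, edgeR adjusted p = 8.19e-06), mt-Co2 2.32-fold (-1.21, SE 0.13, edgeR adjusted p = 1.93e-05) and mt-Atp6 2.2-fold (-1.14, SE 0.12, edgeR adjusted p = 1.23e-05). Smaller falls were found for mt-Co1 (-0.74, SE 0.18), mt-Nd5 (-0.64, SE 0.21), mt-Nd4 (-0.61, SE 0.18), mt-Atp8 (-0.53, SE 0.16) and mt-Cytb (-0.51, SE 0.16), with edgeR adjusted p-values between 0.00355 and 0.0198. mt-Nd6 rose by 0.59 (SE 0.21, edgeR adjusted p = 0.0289). mt-Nd1 at -0.25 (SE 0.13), mt-Nd2 at -0.20 (SE 0.15) and mt-Nd4l at 0.21 (SE 0.22) were not called.

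The smaller changes depended on single libraries. Without mESC-2i replicate 3, or without mESC-ser replicate 2, 5 mRNAs were called lower and mt-Atp8, mt-Nd4, mt-Nd5 and mt-Cytb were not. Without mESC-ser replicate 1, 6 were called lower, and without mESC-ser replicate 3 mt-Nd5 was not called. The call of mt-Nd6 was lost without mESC-ser replicate 1 or 3 and without mESC-2i replicate 1 or 2, while mt-Nd4l was called higher without mESC-2i replicate 3. With the replicate number as a block, mt-Cytb was at -0.49 (edgeR adjusted p = 3e-04) and short of the fold threshold, and no other mRNA changed its call. Same-numbered libraries of these states bear out this block only in part (r 0.247 to 0.475, beside at most 0.244 between different numbers). With length and GC offsets mt-Nd6 (0.54) and mt-Cytb (-0.52) were not called.

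**Figure D2:**
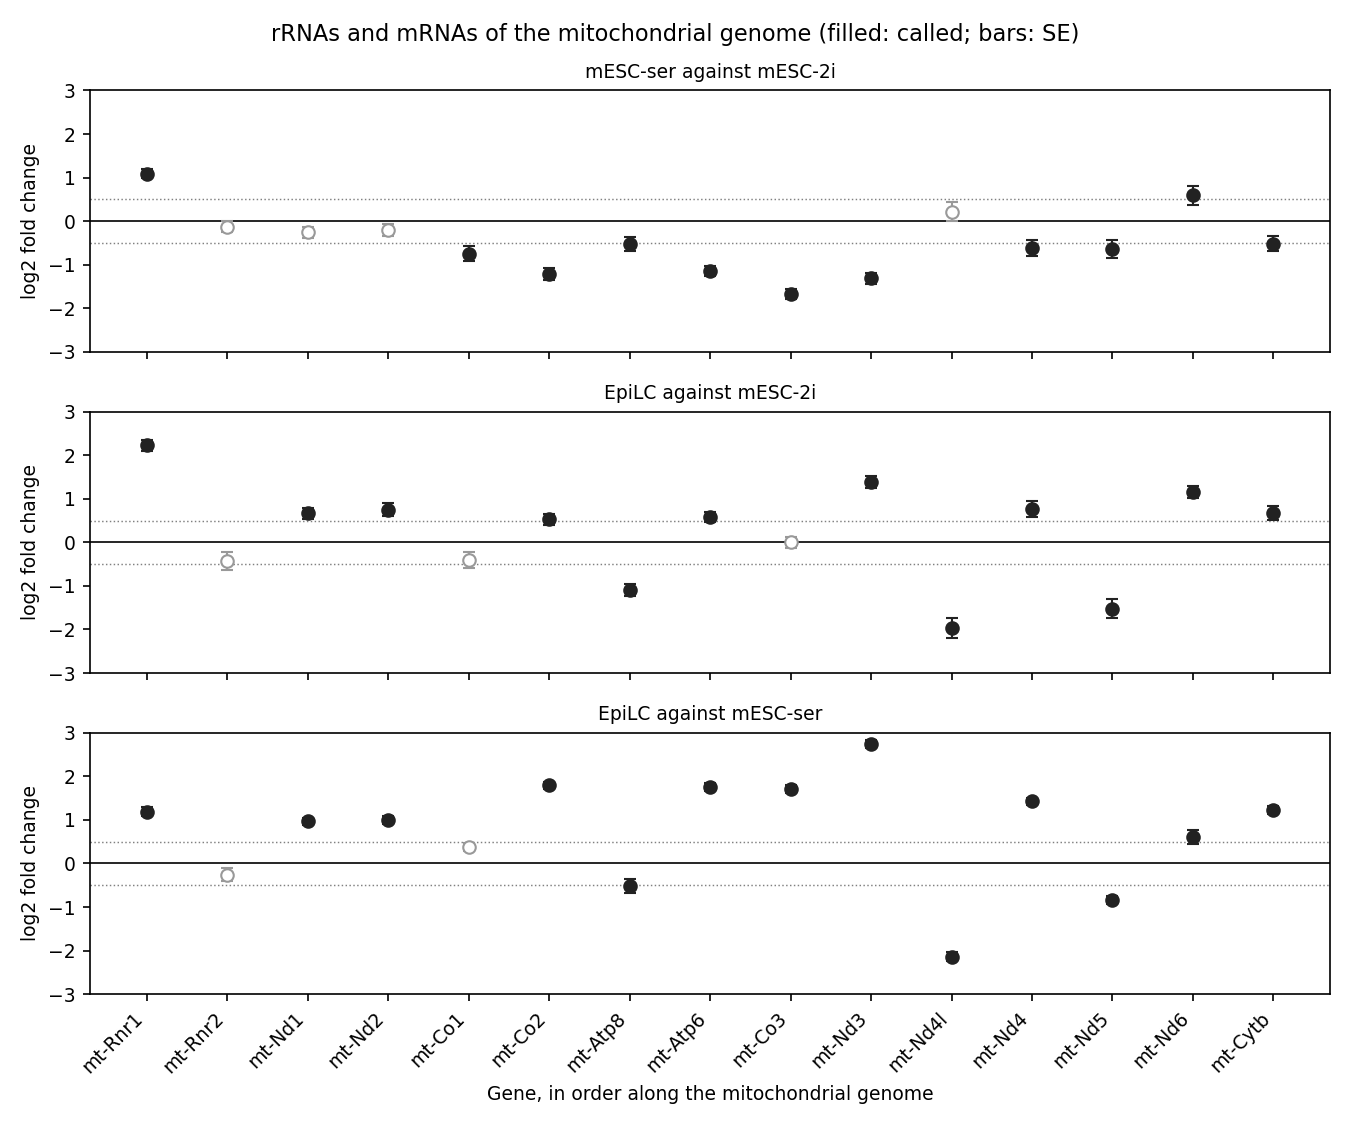
Log2 fold change (vertical axis) of the 2 rRNAs and 13 mRNAs in their order along the genome (horizontal axis) in the 3 comparisons, with bars for SE, filled points for called genes and dotted lines at the fold threshold. In EpiLC, mt-Atp8, mt-Nd4l and mt-Nd5 lie below 0 between neighbours that lie above it, and mt-Rnr1 is above 0 in all 3 panels.

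The second comparison set EpiLC against mESC-2i, the state they were made from. 8 of the 13 mRNAs were called higher in EpiLC, against 32.0% of the 15378 genes tested, and 3 were called lower, against 37.8%. The groups were apart in 12 of the 13, all but mt-Co3, against 81.8% of all genes tested. The median log2 fold change was 0.57 over the 13 and -0.11 over all genes tested.

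The 3 mRNAs whose counts fell were mt-Nd4l, mt-Nd5 and mt-Atp8. Of these, mt-Nd4l overlaps mt-Nd4, and mt-Atp8 is read from the same messenger as mt-Atp6. Both partners were called higher (0.77 and 0.57). The falls of mt-Nd4l and mt-Atp8 are therefore of counts over a gene, and no fall of a separate messenger is shown. mt-Nd4l fell 3.92-fold (log2 fold change -1.97, SE 0.22, edgeR adjusted p = 1.37e-05), mt-Nd5 2.87-fold (-1.52, SE 0.22, edgeR adjusted p = 8.1e-05) and mt-Atp8 2.13-fold (-1.09, SE 0.14, edgeR adjusted p = 3.33e-05). At 204, 297 and 1824 bases, mt-Atp8 and mt-Nd4l are the shortest of the 13 and mt-Nd5 is the longest. Gm10222, the copy of mt-Nd4l, was at 1655, 2218 and 4644 counts in mESC-2i and 496, 552 and 525 in EpiLC, so the count on the shared sequence was lower on both rows.

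Of the 8 mRNAs that rose, mt-Nd3 (log2 fold change 1.38, SE 0.13, edgeR adjusted p = 3.06e-06) and mt-Nd6 (1.16, SE 0.14, edgeR adjusted p = 1.91e-05) rose most. The others were mt-Nd4 at 0.77 (SE 0.19), mt-Nd2 at 0.75 (SE 0.15), mt-Nd1 at 0.67 (SE 0.13), mt-Cytb at 0.66 (SE 0.16), mt-Atp6 at 0.57 (SE 0.12) and mt-Co2 at 0.53 (SE 0.13), with edgeR adjusted p-values between 0.000726 and 0.00323. mt-Co1 at -0.41 (SE 0.18) and mt-Co3 at -0.00 (SE 0.12) were not called. Without mESC-2i replicate 1, mt-Co2 was at 0.49 and short of the fold threshold.

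The rises were sensitive to how libraries were put on a common scale, and the falls were not. With offsets for exonic length and GC content in each library, 0 of the 8 rises was called, while mt-Nd4l (-2.94), mt-Atp8 (-2.37) and mt-Nd5 (-1.65) were called lower and mt-Co1 (-0.58) with them. The mitochondrial mRNAs, at 204 to 1824 bases and 31.9% to 41.1% GC, are shorter and poorer in GC than most of 10880 other protein-coding genes with at least 10 counts in every library (medians of 4529 bases and 49.9%). With total counts as the only scaling, 2 rises (mt-Nd3 and mt-Nd6) and 4 falls (mt-Co1 added) were called, and of all genes 24.1% were called higher and 47.4% lower. The median over all genes tested moved from -0.11 to -0.45 on that scale, and to 0.18 with the length and GC offsets.

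The third comparison set EpiLC against mESC-ser. 9 of the 13 mRNAs were called higher in EpiLC, against 35.5% of the 15345 genes tested, and 3 lower, against 37.8%. The groups were apart in 12 of the 13, all but mt-Atp8, against 85.7% of all genes tested. This comparison shares its mESC-ser libraries with the first and its EpiLC libraries with the second, so its values stand beside theirs and are not independent of them.

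mt-Nd3 rose 6.7-fold (log2 fold change 2.75, SE 0.09, edgeR adjusted p = 1.17e-13), mt-Co2 3.46-fold (1.79, SE 0.09, edgeR adjusted p = 9.6e-12), mt-Atp6 3.39-fold (1.76, SE 0.09, edgeR adjusted p = 1.31e-11) and mt-Co3 3.27-fold (1.71, SE 0.08, edgeR adjusted p = 7.84e-12). mt-Nd4 (1.42, SE 0.08), mt-Cytb (1.22, SE 0.09), mt-Nd2 (1.00, SE 0.09), mt-Nd1 (0.96, SE 0.09) and mt-Nd6 (0.61, SE 0.15) rose less, with edgeR adjusted p-values between 2.87e-11 and 0.00149. mt-Nd4l fell 4.4-fold (-2.14, SE 0.11, edgeR adjusted p = 1.09e-11), mt-Nd5 1.79-fold (-0.84, SE 0.09, edgeR adjusted p = 2.3e-07) and mt-Atp8 1.43-fold (-0.51, SE 0.15, edgeR adjusted p = 0.00571). mt-Co1 was at 0.38 (SE 0.09, edgeR adjusted p = 0.00061), short of the fold threshold. With the length and GC offsets 8 of the 9 rises and all 3 falls were called, mt-Nd6 turning to -0.09. The call of mt-Atp8 was lost without mESC-ser replicate 3 or EpiLC replicate 2, and that of mt-Nd6 without mESC-ser replicate 2.

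The mRNAs did not move as a block, so each was also compared with the total of the 13. In this second fit the summed count of the 13 mRNAs was taken as the size of each library, and a log2 fold change gives the movement of a gene within the pool, not its level in the cell. In mESC-ser against mESC-2i, 3 mRNAs were called higher within the pool, against 54.2% of all genes tested on this scale, and 3 lower, against 11.5%. mt-Nd6 (log2 fold change 1.30, SE 0.18, edgeR adjusted p = 7.83e-05), mt-Nd4l (0.97, SE 0.18) and mt-Nd2 (0.52, SE 0.15) rose, and mt-Co3 (-0.98, SE 0.19, edgeR adjusted p = 0.000842), mt-Nd3 (-0.63, SE 0.21) and mt-Co2 (-0.50, SE 0.16) fell. Leaving out 1 library left between 1 and 4 calls lower, with 1 without mESC-ser replicate 1 or mESC-2i replicate 2, where mt-Nd2, mt-Co2 and mt-Nd3 were not called. mt-Co2 was also not called without mESC-ser replicate 2 or 3, nor mt-Nd3 without mESC-2i replicate 1, and mt-Atp6 was called lower without mESC-2i replicate 3. With nuclear copies added to the members, mt-Nd2 (0.49) and mt-Co2 (-0.48) were short of the fold threshold.

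Against mESC-2i, 2 mRNAs were called higher within the EpiLC pool, mt-Nd3 (1.09, SE 0.23, edgeR adjusted p = 0.000698) and mt-Nd6 (0.91, SE 0.16, edgeR adjusted p = 0.000134), against 25.3% of all genes tested. 3 were called lower, against 45.1%, namely mt-Nd4l (-2.19, SE 0.19, edgeR adjusted p = 8.13e-08), mt-Nd5 (-1.75, SE 0.25, edgeR adjusted p = 1.69e-05) and mt-Atp8 (-1.37, SE 0.19, edgeR adjusted p = 1.57e-05). Without mESC-2i replicate 3, 4 were called higher, mt-Nd2 and mt-Nd4 added, and 4 lower, mt-Co1 added, which was also called lower without mESC-2i replicate 2. With the highest mRNA left out of the total mt-Co1 was called lower too (-0.85), and with nuclear copies added to the members mt-Nd2 was called higher.

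Against mESC-ser, 4 were called higher within the EpiLC pool, against 16.0%, and 4 lower, against 63.9%. mt-Nd3 (1.72, SE 0.11), mt-Co2 (0.78, SE 0.10), mt-Atp6 (0.74, SE 0.10) and mt-Co3 (0.69, SE 0.10) rose, with edgeR adjusted p-values between 3.2e-10 and 7.2e-06. mt-Nd4l (-3.16, SE 0.12), mt-Nd5 (-1.86, SE 0.11), mt-Atp8 (-1.54, SE 0.16) and mt-Co1 (-0.63, SE 0.10) fell, with edgeR adjusted p-values between 6.03e-13 and 1.2e-05. Without mESC-ser replicate 2, mt-Nd6 was called lower as well (-0.55). With the highest mRNA left out of the total, mt-Nd6 was also called lower and mt-Co3 was not called.

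**Figure D3:**
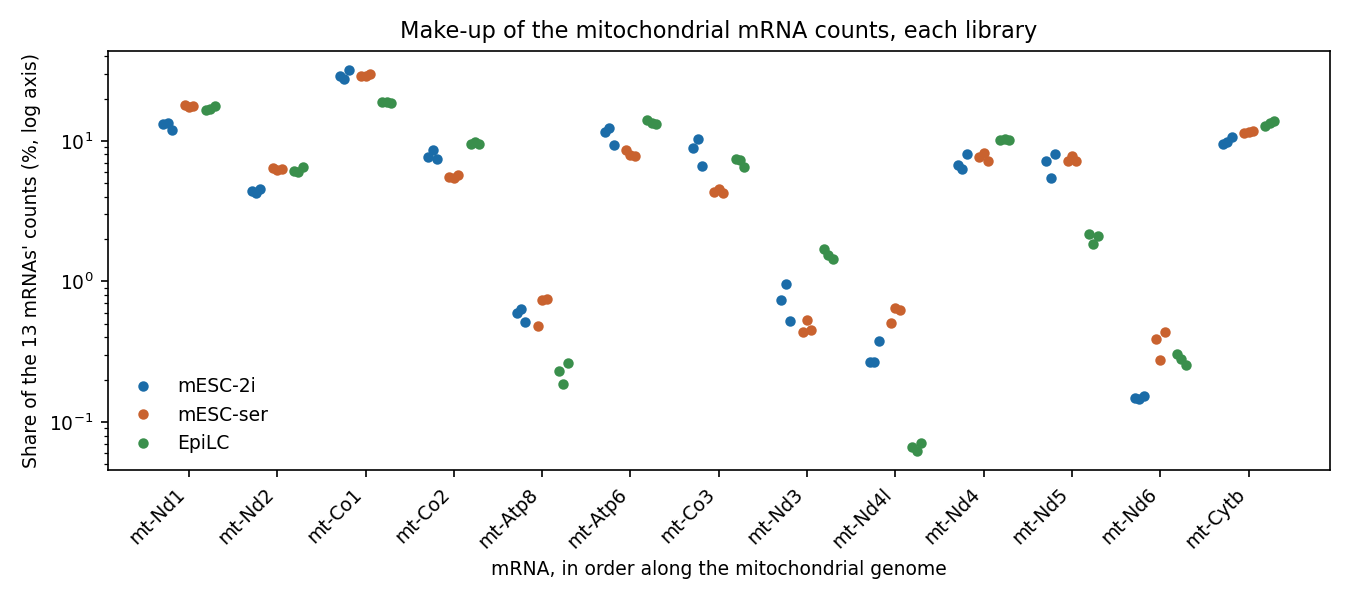
Share of the summed count of the 13 mRNAs taken by each mRNA (vertical axis, percent on a log axis) in every library, with genes in their order along the genome and colours for the 3 culture states. EpiLC points lie lowest for mt-Co1, mt-Atp8, mt-Nd4l and mt-Nd5 and highest for mt-Co2, mt-Atp6, mt-Nd3, mt-Nd4 and mt-Cytb.

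The counts of some pairs of genes shifted against each other by these amounts. The ratio of the counts of mt-Nd4 and mt-Nd4l, genes that overlap, was 25.1, 23.3 and 21.4 in mESC-2i, 15, 12.8 and 11.6 in mESC-ser, with 152, 166 and 143 in EpiLC. That of mt-Atp6 to mt-Atp8 was 19.4, 19.5 and 18.1, then 17.9, 10.9 and 10.4, then 61.6, 72.8 and 50.3. In both overlapping pairs the EpiLC ratios lay above all others and the mESC-ser ratios below those of mESC-2i. The ratio of mt-Cytb to mt-Nd5 was 1.48 ± 0.271 in mESC-2i (SD, n = 3), near that of 1.56 ± 0.0858 in mESC-ser with overlapping libraries, and 6.56 ± 0.657 in EpiLC, with mt-Nd6 and a tRNA between these genes. Of mt-Co1 to mt-Co3, which have mt-Co2, mt-Atp8 and mt-Atp6 between them, it was 3.58 ± 1.13, 6.67 ± 0.3 and 2.67 ± 0.162, with mESC-2i and EpiLC overlapping.

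Summed by complex, cytochrome c oxidase took less of the pool in mESC-ser and EpiLC than in mESC-2i. Its 3 mRNAs held 46% ± 0.329 (SD, n = 3) of the mRNA counts in mESC-2i, 39.1% ± 0.5 in mESC-ser, with 35.5% ± 0.802 in EpiLC. The 7 mRNAs of complex I held 32.3% ± 1.38, 40.5% ± 0.577 and 37.4% ± 0.649, and mt-Cytb of complex III 9.97% ± 0.532, 11.6% ± 0.262 and 13.3% ± 0.528. The ATP synthase pair held 11.7% ± 1.62, 8.81% ± 0.312 and 13.9% ± 0.458. For each of these complexes the 3 states did not overlap in any library.

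The rRNAs moved apart from each other. mt-Rnr1 (ENSMUSG00000064337, chrM:70-1024), the rRNA of the small ribosomal subunit, was at 173, 192 and 169 CPM in mESC-2i, 396, 366 and 419 in mESC-ser, with 816, 722 and 995 in EpiLC. mt-Rnr2 (ENSMUSG00000064339, chrM:1094-2675), that of the large subunit, was at 671, 635 and 841 CPM in mESC-2i, 669, 632 and 748 in mESC-ser, with 523, 372 and 727 in EpiLC. The 3 states did not overlap for mt-Rnr1 and overlapped for mt-Rnr2. mt-Rnr1 rose 2.12-fold in mESC-ser (log2 fold change 1.09, SE 0.10, edgeR adjusted p = 7.06e-06) and 4.68-fold in EpiLC (2.23, SE 0.13, edgeR adjusted p = 1.07e-07) against mESC-2i. Its rise from mESC-ser to EpiLC was 2.27-fold (1.18, SE 0.10, edgeR adjusted p = 1.4e-08). mt-Rnr2 was not called in the same comparisons, at -0.13 (SE 0.13), -0.42 (SE 0.21) and -0.25 (SE 0.16). Without EpiLC replicate 3, mt-Rnr2 was called lower in EpiLC against mESC-2i (-0.69, edgeR adjusted p = 0.00726) and against mESC-ser (-0.52, edgeR adjusted p = 0.00145), and total counts as scaling also gave calls (-0.76 and -0.59).

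The ratio of mt-Rnr2 to mt-Rnr1 counts was 3.87, 3.3 and 4.98 in mESC-2i, 1.69, 1.73 and 1.79 in mESC-ser, with 0.641, 0.516 and 0.731 in EpiLC, with no overlap between states. Per length, mt-Rnr1 stood at 186 ± 13.1, 412 ± 27.7 and 884 ± 145 CPM per kb (SD, n = 3) and mt-Rnr2 at 452 ± 69.5, 432 ± 37.6 and 342 ± 113. The length and GC offsets kept the calls of mt-Rnr1, at 1.01, 1.76 and 0.82, and also gave mt-Rnr2 a call in EpiLC relative to mESC-2i (-0.66, edgeR adjusted p = 0.00612). The length of the poly-A tail on either rRNA was not measured, and its part in these values was not tested.

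**Figure D4:**
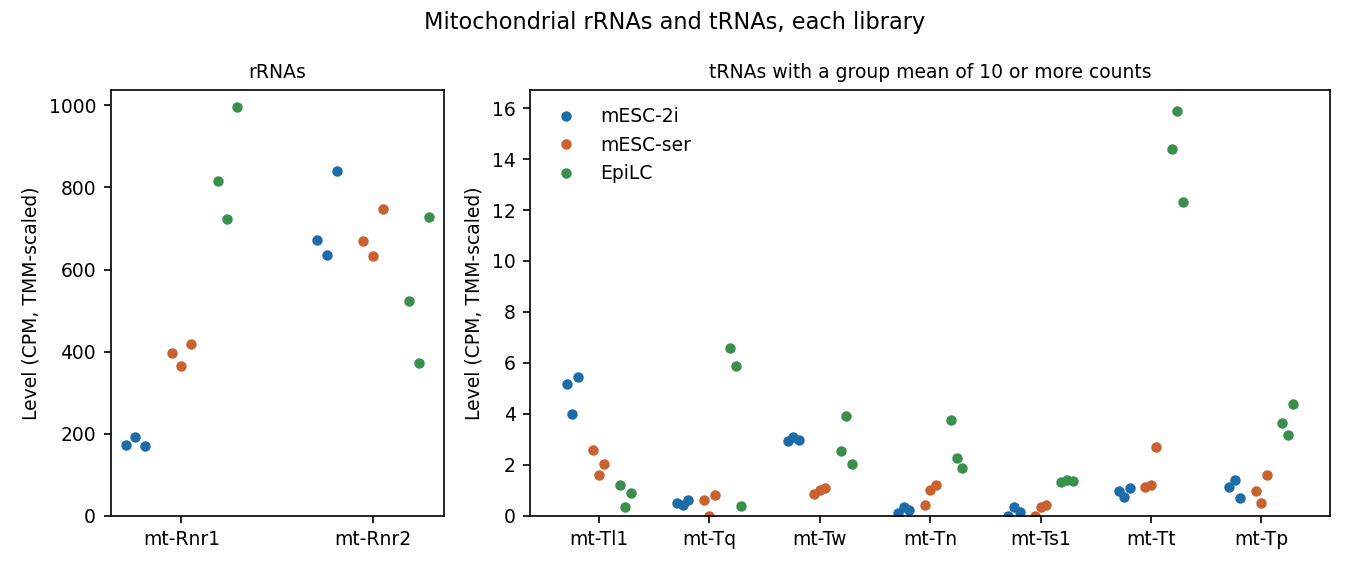
Level in CPM (vertical axis, TMM-scaled) of the 2 rRNAs (left) and of the 7 tRNAs with a mean of at least 10 counts in any state (right), each point 1 library. mt-Rnr1 and mt-Tt are highest in EpiLC in every library, mt-Tl1 is highest in mESC-2i, and the EpiLC points of mt-Tq are split.

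Most tRNAs were at or near 0 counts. 3 of the 22, mt-Tf, mt-Tr and mt-Th, had 0 counts in every library, which allows up to 3 counts per library for counting error, and 10 had at most 3 counts in any library. 7 tRNAs reached a mean of 10 counts in at least 1 state, and the other 15 had at most 9 counts in any library. A 50-base read that falls on a tRNA alone has few places to start, so these counts are of RNA fragments that reach into or past the tRNA as well as of the tRNA itself. The filter on low counts passed 4 tRNAs in mESC-ser against mESC-2i and 6 in each of the other comparisons. Those that passed needed counts in at least 1 state, so the number called among them is no measure of the 22.

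mt-Tt was at 0.982, 0.75 and 1.09 CPM in mESC-2i, 1.12, 1.19 and 2.7 in mESC-ser, with 14.4, 15.9 and 12.3 in EpiLC. EpiLC lay above all other libraries, from 98 to 147 counts a library. mt-Tt rose 14.8-fold in EpiLC against mESC-2i (log2 fold change 3.88, SE 0.22, edgeR adjusted p = 9.53e-08) and 8.59-fold against mESC-ser (3.10, SE 0.24, edgeR adjusted p = 2.64e-09). It follows mt-Cytb on the same strand with no base between them, and mt-Cytb rose by 0.66 and 1.22 in these comparisons.

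mt-Tl1, which lies between mt-Rnr2 and mt-Nd1, went the other way. It was at 5.16, 4 and 5.46 CPM in mESC-2i, 2.59, 1.61 and 2.01 in mESC-ser, with 1.21, 0.325 and 0.879 in EpiLC, with no overlap between states. It fell by 1.28 on the log2 scale in mESC-ser (SE 0.23, edgeR adjusted p = 0.000741) and by 2.65 in EpiLC (SE 0.35, edgeR adjusted p = 4.53e-05) against mESC-2i, with a fall by 1.34 from mESC-ser to EpiLC (SE 0.37, edgeR adjusted p = 0.00335). Its EpiLC counts were 9, 3 and 7.

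mt-Tw was at 2.95, 3.09 and 2.96 CPM in mESC-2i, 0.84, 1.02 and 1.09 in mESC-ser, with 2.55, 3.91 and 2.01 in EpiLC, so mESC-ser alone stood apart. mt-Tw fell in mESC-ser against mESC-2i (log2 fold change -1.65, SE 0.23, edgeR adjusted p = 0.000133), rose in EpiLC against mESC-ser (1.61, SE 0.30, edgeR adjusted p = 9.2e-05) and was at -0.09 (SE 0.27) in EpiLC against mESC-2i. On the minus strand, mt-Tn was at 1, 4 and 3 counts in mESC-2i, 6, 12 and 21 in mESC-ser, with 28, 21 and 15 in EpiLC. mt-Tp was at 9, 17 and 9 counts, 14, 6 and 28 counts, and 27, 29 and 35 counts in the same order of states. mt-Ts1 (serine, chrM:6870-6938) was at 0, 4 and 2 counts, 0, 4 and 7 counts, and 10, 13 and 11 counts.

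These 3 tRNAs were highest in EpiLC by CPM. mt-Tp rose in EpiLC by 1.77 (SE 0.30, edgeR adjusted p = 0.00027) against mESC-2i and by 1.83 (SE 0.30, edgeR adjusted p = 3.04e-05) against mESC-ser. mt-Tn and mt-Ts1 passed the filter only where EpiLC was compared, through the state in which they are high, so their log2 fold changes are given as values without a test. They were 3.35 and 2.83 against mESC-2i and 1.62 and 2.48 against mESC-ser. For these minus-strand tRNAs, reads of RNA from the plus strand cannot be told apart from their own. With the length and GC offsets mt-Tt and mt-Tl1 kept their EpiLC calls, at 2.19 and -4.16 against mESC-2i and 1.26 and -3.29 against mESC-ser, while against mESC-ser mt-Tw, mt-Tn and mt-Tp turned to -0.31, -0.18 and -0.22 and mt-Ts1 came to 0.65, none of them called. Against mESC-2i these offsets left mt-Tp at 0.22, not called, and mt-Ts1 and mt-Tn at 1.25 and 1.69, and mt-Tw was called at -1.68. In mESC-ser relative to mESC-2i, mt-Tt was at 0.81 (SE 0.41) and not called, and it was called with the offsets (1.08) or without mESC-ser replicate 1 (1.07). mt-Tq (glutamine, chrM:3772-3842) had 49, 54 and 3 counts in EpiLC against at most 14 elsewhere and passed the filter in no comparison.

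Nuclear genes that make and handle mitochondrial RNA were read from 6 lists of 75 genes by role, of which 71 were tested in each comparison. The lists were drawn up with earlier results of these data known. In mESC-ser against mESC-2i, 14 were called higher and 8 lower, against 25.9% and 30.3% of all genes tested. In EpiLC, 28 were called higher and 9 lower against mESC-2i (32.0% and 37.8% of all genes), and 30 higher and 11 lower against mESC-ser (35.5% and 37.8%). The median log2 fold changes were 0.09, 0.40 and 0.37, beside -0.04, -0.11 and -0.07 over all genes tested. With total counts as scaling, 13 were called higher and 17 lower in EpiLC relative to mESC-2i, beside 24.1% and 47.4% of all genes on that scale.

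The core transcription machinery had few calls, and several of them turned on the scaling. Tfam, which packages mitochondrial DNA and activates its promoters, was at 66.7, 69.5 and 59.8 CPM in mESC-2i, 87.9, 85.2 and 84 in mESC-ser, with 113, 111 and 113 in EpiLC. It rose in EpiLC against mESC-2i (log2 fold change 0.76, SE 0.09, edgeR adjusted p = 1.91e-05) and was short of the fold threshold in the other comparisons (0.33 from mESC-2i to mESC-ser and 0.47 from mESC-ser to EpiLC). Polrmt, the mitochondrial RNA polymerase, was at 40.4, 40.2 and 52.3 CPM in mESC-2i, 58.4, 55.3 and 68.1 in mESC-ser, with 36.6, 36.2 and 41 in EpiLC. It fell in EpiLC against mESC-ser (-0.59, SE 0.10, edgeR adjusted p = 2.75e-05), and was at 0.39 and -0.25 in the comparisons with mESC-2i. Tfb2m, which opens the promoters, and Tefm, an elongation factor, were called in no comparison (-0.40 to 0.38 and -0.29 to 0.40). With total counts as scaling, Tfam lost its call (0.42), Polrmt was called lower in EpiLC relative to mESC-2i as well (-0.58) and Tfb2m relative to mESC-ser (-0.74). Tfam was also called from mESC-ser to EpiLC with RLE scaling or DESeq2 (0.50 each) and with length and GC offsets (0.87). Without mESC-2i replicate 3, Polrmt (0.54) and Tfb2m (0.50) were called higher in mESC-ser, and without mESC-ser replicate 1 Tefm was called higher in EpiLC (0.53). Of the 10 transcription genes, 3 were called higher in each EpiLC comparison, near the 32.0% and 35.5% of all genes called higher. 0 were called lower against mESC-2i and 1 against mESC-ser, beside 37.8% of all genes in both. In mESC-ser against mESC-2i, 0 were called in either direction, beside 25.9% higher and 30.3% lower of all genes.

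Genes of RNA stability changed in both directions. Grsf1, a protein of mitochondrial RNA granules that binds G-rich RNA, was at 250, 274 and 230 CPM in mESC-2i, 128, 121 and 125 in mESC-ser, with 63.5, 61.6 and 55.4 in EpiLC. Each step down was called (-1.07 from mESC-2i to mESC-ser, -2.08 from mESC-2i to EpiLC and -0.96 from mESC-ser to EpiLC), with edgeR adjusted p-values between 1.24e-08 and 7.16e-06. Slirp, which with Lrpprc protects mitochondrial mRNAs, was at 40.5, 47.5 and 28.5 CPM, 31.2, 36.1 and 26.4 CPM, and 157, 159 and 135 CPM in mESC-2i, mESC-ser and EpiLC. Slirp rose in EpiLC by 1.94 (SE 0.16) against mESC-2i and by 2.36 (SE 0.11) against mESC-ser. Its partner Lrpprc was at -0.04 (SE 0.10) and -0.40 (SE 0.08) and was not called, but it was called higher in both with length and GC offsets (0.65 and 0.55) and lower than in mESC-ser with total counts (-0.74). Fastkd5, which acts on mRNA ends that no tRNA marks, rose in EpiLC by 1.86 (SE 0.12) and 1.78 (SE 0.11). The edgeR adjusted p-values of Slirp and Fastkd5 in EpiLC lay between 5.31e-12 and 1.59e-06. Fastkd5 overlaps another gene on its own strand, so its reads may be shared. Of the 15 genes of RNA stability, 6 were called higher and 3 lower in EpiLC against mESC-2i, beside 32.0% and 37.8% of all genes tested.

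Among the other roles, Ssbp1, which coats single-stranded mitochondrial DNA, rose in EpiLC by 1.84 (SE 0.09) against mESC-2i and by 2.11 (SE 0.10) against mESC-ser. Nsun3, a tRNA methyltransferase, fell by 1.65 (SE 0.19) and 1.71 (SE 0.17), and Taco1, an activator of the translation of mt-Co1, fell by 1.44 (SE 0.24) and 1.27 (SE 0.22). Gabpa, a transcription factor for nuclear genes of mitochondrial proteins, rose in mESC-ser by 0.94 (SE 0.10) and fell in EpiLC by 1.27 (SE 0.11) against mESC-2i and by 2.16 (SE 0.09) against mESC-ser. In mESC-ser against mESC-2i the DNA ligase Lig3 (1.16, SE 0.10), the ribosome recycling factor Gfm2 (1.00, SE 0.12) and the tRNA end nuclease Elac2 (0.95, SE 0.11) rose most, and the rRNA methyltransferase Mrm1 (-1.19, SE 0.14), the primase Primpol (-1.17, SE 0.21) and the RNase P subunit Hsd17b10 (-1.10, SE 0.20) fell most. Polg, the catalytic subunit of the mitochondrial DNA polymerase, and Twnk, the helicase, also rose there (0.85, SE 0.12, and 0.54, SE 0.11), and Polg fell in EpiLC against mESC-ser (-0.71, SE 0.09). Length and GC offsets turned that value of Polg to 0.20, and the rise of Twnk was short of the fold threshold with total counts (0.499) and without mESC-2i replicate 2 (0.47). With introns included, Elac2, Gabpa, Gfm2, Lig3, Lrpprc, Polg, Primpol, Slirp, Taco1, Tfb2m and Twnk overlap a gene on the opposite strand. Mtpap and Ppargc1b overlap 1 on each strand. Where exons overlap, reads of both genes cannot be told apart, but overlap of exons was not checked. The edgeR adjusted p-values of the genes called in this paragraph, Ppargc1b aside, lay between 1.03e-12 and 0.00109. Mtpap, the poly-A polymerase of mitochondria, was called in no comparison (0.08 to 0.29), but with length and GC offsets it was called higher in EpiLC (0.84 relative to mESC-2i and 1.01 relative to mESC-ser). The coactivator Ppargc1b rose in EpiLC (0.78 against mESC-2i and 1.08 against mESC-ser, edgeR adjusted p = 0.0128 and 0.000272). The former call was lost without EpiLC replicate 3 (0.56) and with total counts (0.44). Ppargc1a had at most 3 counts in any library and was not tested.

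**Figure D5:**
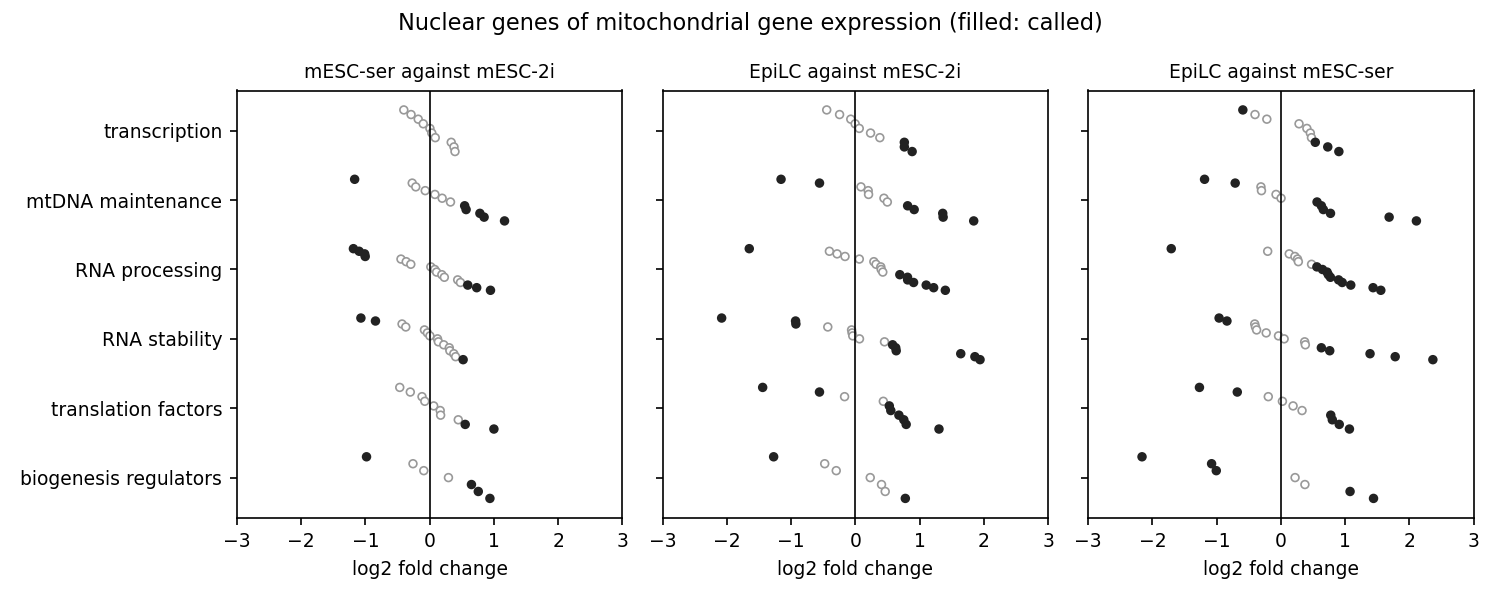
Log2 fold change (horizontal axis) of nuclear genes of mitochondrial gene expression in 6 lists by role (vertical axis) in the 3 comparisons, each point 1 gene and filled points called genes. Most points lie right of 0 in the EpiLC panels (medians 0.40 and 0.37).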

How the data were processed

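Poly-A enriched RNA of 9 libraries (3 per culture state) was sequenced as 50 bp single-end reads after a TruSeq kit that does not mark strand. The authors trimmed reads with Trim Galore 0.6.6, aligned them to mm10 with HISAT2 2.2.1 and deposited raw counts per gene from featureCounts of Subread 2.0.1. Annotation release, strand setting and treatment of reads with several hits were not given in the sources used here. Of 38293 gene IDs, 36429 (95.1%) matched GENCODE M21, from which positions and sequences were read.

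Each pair of states was fitted over its 6 libraries with edgeR 4.0.16 in R 4.3.3 (filterByExpr, TMM, quasi-likelihood test, Benjamini-Hochberg adjustment over all genes tested). Levels are TMM-scaled CPM over 9 libraries, and the SE of a fold change was taken from its F value. A second fit took the summed count of the 13 mRNAs as library size. The members and lists were chosen with earlier results of these data known. All mRNAs and rRNAs are named, with tRNAs of at least 10 counts on average in a state, 11 fixed nuclear genes and, per comparison, the 3 listed genes that rose and the 3 that fell most among those called. Copies were sought among annotated transcripts with blastn (at least 90% identity over 100 bases), and unannotated copies were not checked. Same-numbered libraries deviated together in mESC-ser and mESC-2i (r 0.247 to 0.475), which was read as possible pairing, and not in all pairs with EpiLC (0.0364 to 0.207). The main fits carry no replicate block, so their SE and p-values ignore such pairing, and the block was run only as an alternative. Between libraries of different number in mESC-ser and mESC-2i, r was -0.409 to 0.244. The highest of these, mESC-ser replicate 1 with mESC-2i replicate 2, was near the 0.247 of the replicates 1, so the pairing is uncertain. Alternatives covered scaling, filters, DESeq2 1.42.0, all libraries in 1 fit, a replicate block, length and GC offsets (splines with 5 degrees of freedom), thresholds and leaving out each library. The fits were tested on simulated counts.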

Additional observations from a re-analysis of the deposited data

How the results depend on the processing

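Of the counts of calls and shares recomputed under an alternative, 286 stayed within the limits set for them and 35 moved. Of the values of single genes, 2589 kept their call or lack of one, 113 lost a call and 65 gained one. A further 18 changed sign with a call in at least 1 of the fits compared. Changes of sign where neither fit gave a call are among the 2589. In mESC-ser against mESC-2i, 1 mRNA was called higher, and 0 with length and GC offsets, with the block and these offsets, at a log2 fold change over 1 or at a nominal p under 0.01. At a log2 fold change over 1, 4 of the 9 lower mRNAs were called. Leaving out 1 library gave 0 to 2 higher and 5 to 9 lower, and within the mRNA pool 1 to 4 lower. In EpiLC against mESC-2i the 8 rises became 2 with total counts, 0 with length and GC offsets, 1 with these and the block, and 2 at a log2 fold change over 1, and within the pool leaving out 1 library gave 2 to 4 higher. In EpiLC against mESC-ser the 3 falls became 1 at a log2 fold change over 1. Relative to counts outside the mitochondrial genome, its counts in EpiLC came to 6.75%. Where fewer calls follow from a stricter threshold or from fewer libraries, the construction sets it. For the rest the cause was not tested.

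For the nuclear genes, adjusted p alone gave 25 higher in mESC-ser, 14 lower in EpiLC relative to mESC-2i and 20 lower relative to mESC-ser. A log2 fold change over 1 left 1 higher in mESC-ser, 10 higher and 5 lower in EpiLC relative to mESC-2i, and 11 higher and 6 lower relative to mESC-ser. Total counts gave 13 higher and 17 lower, then 15 higher and 21 lower, in these EpiLC comparisons. Length and GC offsets gave 43 higher relative to mESC-2i, and 44 with the block, beside 37.5% and 37.8% of all genes.

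Length and GC offsets changed the sign of some genes called with or without them (values with the replicate block in parentheses). In EpiLC relative to mESC-2i these were mt-Co2 at -0.050 (-0.027), mt-Atp6 at -0.049 (-0.044) and Lrpprc at 0.648 (0.650). Relative to mESC-ser they were mt-Nd6 at -0.090 (-0.007), mt-Tw at -0.314 (-0.353), mt-Tn at -0.180 (-0.181), mt-Tp at -0.223 (-0.159), Polg at 0.201 (0.202) and Lrpprc at 0.550 (0.549). The replicate block alone left 8 mRNAs called lower in mESC-ser, without mt-Cytb, and changed no call of an mRNA in the other comparisons. The alternative with nuclear copies added to the members was chosen after seeing the data, and in EpiLC relative to mESC-2i it left 7 rises, without mt-Co2.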
